A study of Mus musculus with 12 samples.

Results

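A set of 38 marker genes of liver cells other than hepatocytes was followed in whole-liver RNA of 12 mice. The markers comprised 16 genes of Kupffer and other immune cells, 12 of sinusoidal endothelial cells and 10 of stellate cells. They were chosen as markers of cells that the GalNAc (N-acetylgalactosamine) ligand of the antisense oligonucleotides (ASOs) does not target, and no measured value entered the rule. Each symbol was found through the Ensembl transcript identifiers. All 38 were present among the 31114 genes of the files, and all 38 were among the 13896 genes tested, those with a mean of at least 0.5 CPM over the 12 livers.

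All mice were of the strain hFIX-R29X, a hemophilia B model. They had lost mouse F9 and carried a human factor IX minigene with the R29X nonsense codon, driven by the human transthyretin promoter, which is active in hepatocytes. The groups were DPBS, the vehicle (spelled DBPS in the labels), a scrambled Control-GalNAc-ASO at 15 mg/kg and an Upf3b-GalNAc-ASO at 10 mg/kg. Each group held 4 livers, with females as replicates 1 and 2 and males as replicates 3 and 4. Mice of 8 to 14 weeks received 6 doses, 1 every 5 days, and were killed 48 h after the last. The doses of the ASOs differed, so the effect of sequence and of dose cannot be told apart between them. Each liver gave between 13277892 and 20387682 estimated counts.

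GalNAc binds the asialoglycoprotein receptor of hepatocytes, which carries conjugated ASOs into these cells. The liver sinusoid is lined by fenestrated endothelial cells that clear waste molecules from blood through scavenger receptors, the stabilins among them. Kupffer cells are the resident macrophages of the sinusoid, and stellate cells lie beneath the endothelium, store vitamin A and are the main source of collagen when the liver scars. UPF3B is a factor of nonsense-mediated mRNA decay (NMD) that links the decay machinery to exon junction complexes.

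The ASOs of the study are gapmers, in which a central stretch of 10 deoxynucleotides is flanked by modified wings of the same length on either side. The sequences are shown because they define what the treatments could bind. Capitals mark the gap, at which RNase H cuts the paired RNA. They come from the list of unconjugated ASOs, and whether the conjugated ASOs carry the same bases is not stated there.

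Upf3b ASO: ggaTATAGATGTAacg

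control ASO: ggcCAATACGCCGtca

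The Upf3b ASO pairs with the site below in the 3′ UTR of transcript Upf3b-201, in the last of 10 exons, at position 2034 of 2344. In GRCm38 the site lies at chrX:37091973-37091988 on the minus strand.

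Upf3b site: cgttacatctatatcc

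No marker transcript held such a site. Over the 160 annotated transcripts of the 38 markers, the closest match to the Upf3b ASO had 4 mismatches of 16 bases, in H2-Ab1, Reln and Col1a2, and the closest site of any other marker had up to 7. For the control ASO the closest matches also had 4 mismatches, in Stab2, Kdr, Lrat and Des. Only these transcripts were searched, and parts of the genes outside them were not. Binding itself was not tested.

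The target was measured first. Upf3b (ENSMUSG00000036572) was at 10.2, 9.17, 13.2 and 10.6 CPM in the DPBS livers and at 8.08, 9.37, 7.73 and 12 CPM in the control ASO livers. CPM are estimated counts relative to the TMM-scaled library size. It was at 1.51, 0.639, 0.996 and 0.667 CPM in the Upf3b-ASO livers, all under every other liver. The mean of the treated group, 0.954 ± 0.408 CPM, was 10.3% of the control ASO mean of 9.29 ± 1.93 CPM (SD, n = 4; exact permutation test, two-sided, p = 0.029, the smallest that 4 against 4 can give). The log2 fold change was -3.29 ± 0.27 (SE) against control ASO and -3.50 ± 0.27 against DPBS (edgeR adjusted p = 8.6e-05 and 3.3e-05). These are values of whole liver, and no value shows how far Upf3b fell in each cell type.

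The levels of the markers were compared per transcript length, as TPM, in the 4 DPBS livers. Dcn, the collagen-binding proteoglycan decorin, had the highest mean TPM, 92.1, and Des, the intermediate filament desmin, the lowest, 2.38. Clec4f, a lectin of mouse Kupffer cells, followed at 78.7 TPM, and Clec4g, the sinusoidal lectin LSECtin, at 74.7 TPM. Cd5l, a protein secreted by macrophages, had a mean of 60.3 TPM and Stab1, a stabilin, of 54.5 TPM. Each class thus held a gene among the 3 highest. In all 37 pairs of neighbours in this order the ranges of the 4 DPBS livers overlapped, so the order of neighbours is not resolved. Summed over each class, the mean TPM in DPBS livers was 495 ± 110 for Kupffer and immune markers, 316 ± 61.4 for endothelial and 227 ± 62.0 for stellate markers (SD, n = 4).

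**Figure D1:**
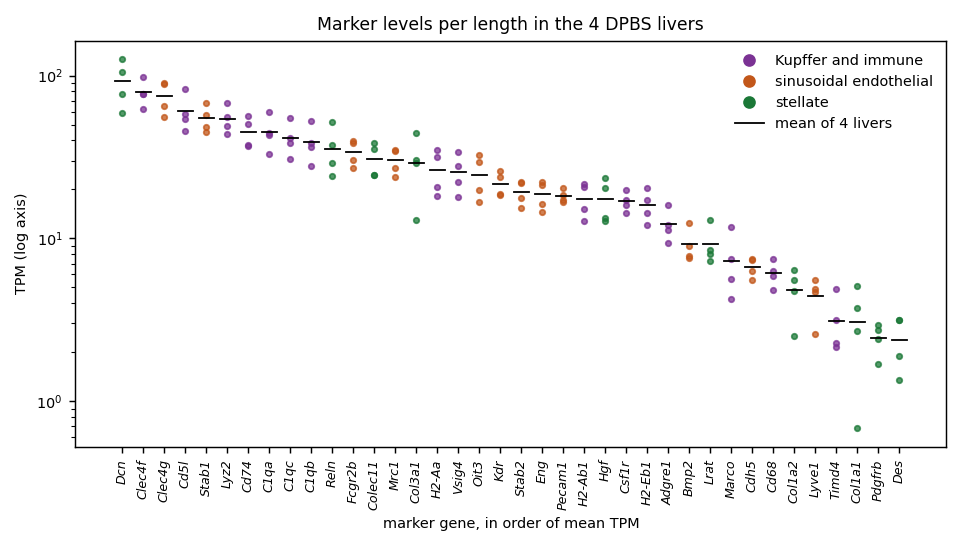
TPM of the 38 markers in the 4 DPBS livers on a log axis, with a point for each liver, a line for the mean of 4 and colours for the cell class, in order of the mean. The means run from 92.1 TPM for Dcn to 2.38 TPM for Des, and the ranges of neighbours overlap throughout.

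A list of 12 hepatocyte genes summed to between 35700 and 94400 TPM per liver, as the label of the tissue calls for, and no gene of that list was at 0. The sum was lower in every male, 35700 to 56600 TPM, than in every female, so the sexes were compared by TMM-scaled CPM. Because whole liver was sequenced, fewer cells of a type and less marker RNA per cell cannot be told apart in any result below. Some markers are shared, such as Mrc1, which macrophages also express, and the MHC class II genes, which dendritic and B cells express.

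Control ASO replicates 1 and 3 stood apart in the markers. In replicate 1, a female, 11 of 16 Kupffer and immune markers were at their highest of the 12 livers, with 2 of 12 endothelial and 5 of 10 stellate markers, 18 of 38 in all. Over all genes tested, 10.0% were highest in this liver. Its median log2 ratio to the other 5 females was 0.65 for Kupffer and immune markers, 0.07 for endothelial and 0.29 for stellate markers.

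Marco, a scavenger receptor for bacteria, was at 61.7 CPM in replicate 1, against a median of 6.75 CPM in the other females, a log2 ratio of 3.17. It was the only marker more than 2-fold above the other females, against 1.66% of all genes. Vsig4, a complement receptor, had a log2 ratio of 0.96, Lyz2, the macrophage lysozyme, of 0.91, and Csf1r, the receptor for colony-stimulating factor 1, of 0.86. The MHC class II genes were near the other females, with log2 ratios of 0.01 for H2-Aa, 0.00 for H2-Ab1 and 0.13 for H2-Eb1.

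Some marker lists of blood cells stood out in this liver and others did not. The erythroid list summed to 10300 TPM, against 687 to 1410 TPM in the 10 livers without replicates 1 and 3, and 7 of its 9 genes found were highest here. A neutrophil list summed to 225 TPM against 3.36 to 9.11 TPM, with 6 of 8 genes highest. The monocyte and recruited macrophage list was at 24.2 TPM against 3.24 to 6.58 TPM, with 4 of 8 genes highest. The B and plasma cell list was at 18.8 TPM against 4.84 to 12.1 TPM, with 4 of 7 genes highest. The T and NK cell list lay within the other livers, at 7.03 TPM against 2.78 to 9.86 TPM, with 1 of 10 genes highest. The dendritic cell list was at 8.0 TPM against 5.42 to 7.92 TPM, with 1 of 8 genes highest. No gene of these lists was at 0 in all livers. Their part in the Kupffer marker levels of this liver was not tested.

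In replicate 3, a male, 20 of 38 markers were the lowest of the 12 livers, 9 of 12 endothelial, 6 of 10 stellate and 5 of 16 Kupffer and immune. Of all genes tested, 29.4% were lowest and 30.3% highest in this liver, and 4 markers were highest. The median log2 ratio to the other 5 males was 0.02 for Kupffer and immune, -0.76 for endothelial and -0.75 for stellate markers.

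Markers of the same cell type moved in opposite directions there. Lyve1, a hyaluronan receptor, was at 75.2 CPM against a median of 10.1 CPM in the other males, and Cdh5, the junction protein VE-cadherin, at 62.2 against 21.5 CPM. Clec4g was at 16.7 against 61.7 CPM and Kdr, the receptor for vascular endothelial growth factor, at 32.1 against 89.5 CPM. Among stellate markers Col3a1, a fibrillar collagen chain, was at 7.87 against 50.9 CPM, while Dcn was at 148 against 101 CPM. All 6 lay outside the range of the other males, with members of both classes on either side.

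More than 2-fold above the other males were 4 markers, Marco, Cd68, Lyve1 and Cdh5, against 12% of all genes. More than 2-fold below were 8, Clec4f, Clec4g, Kdr, Oit3, Fcgr2b, Lrat, Col1a1 and Col3a1, against 10.9% of all genes. The neutrophil list was at 27.8 TPM in this liver, and its part in the marker levels was not tested.

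**Figure D2:**
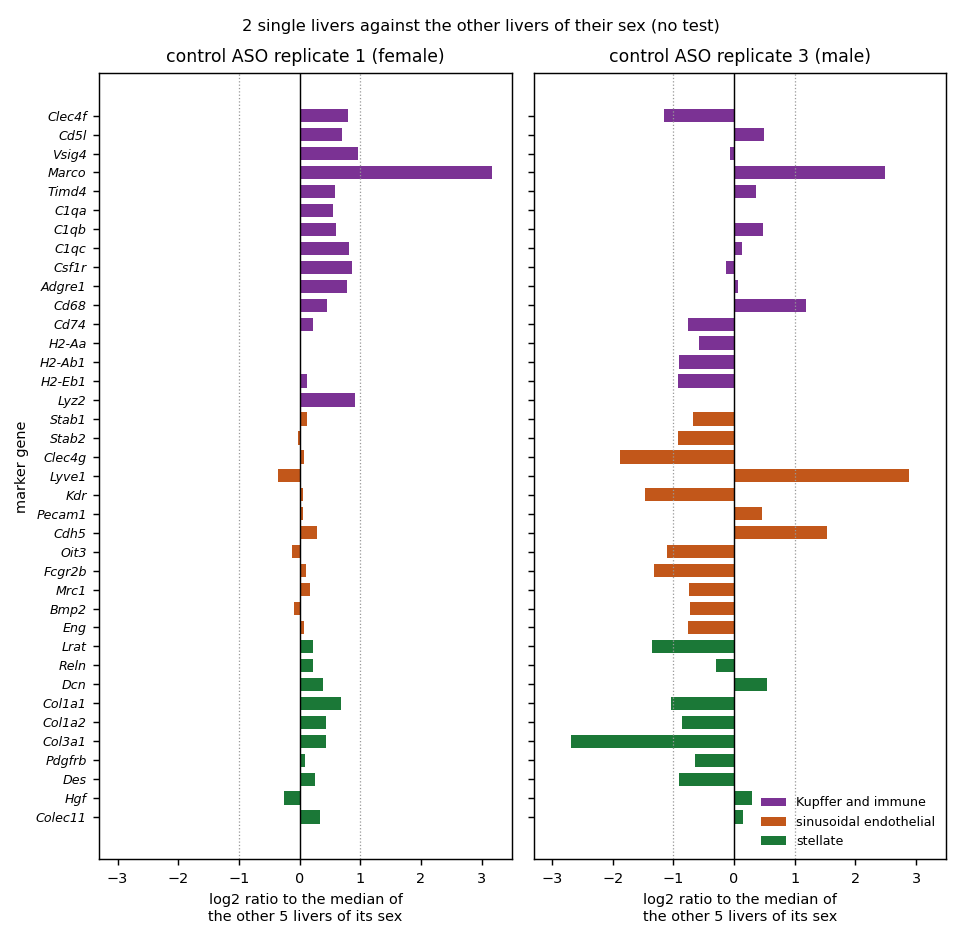
Log2 ratio of each marker in control ASO replicate 1 (left) and replicate 3 (right) to the median of the other 5 livers of the same sex, with dotted lines at 2-fold. Bars for Kupffer and immune markers lie to the right in replicate 1, and endothelial and stellate bars mostly to the left in replicate 3, with Lyve1 and Cdh5 to the right.

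The spread within the control ASO group was therefore wide. The median SD of log2 CPM over the 38 markers was 0.54 in control ASO livers, 0.24 in DPBS livers and 0.22 in Upf3b-ASO livers, against 0.36, 0.18 and 0.19 over all genes tested. The comparisons below were made with all 12 livers and repeated without these livers.

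**Figure D3:**
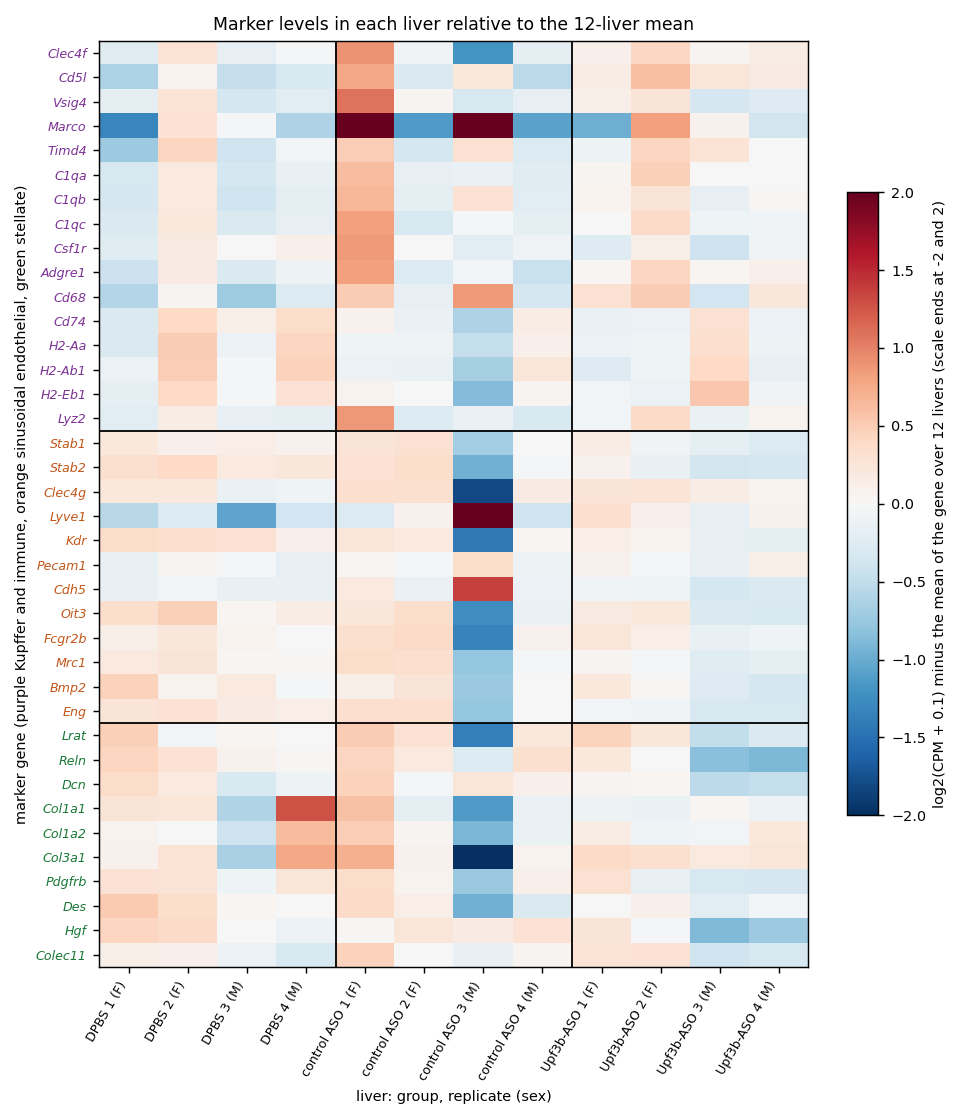
Each row is a marker and each column a liver, by group, replicate and sex (F, M). Colour is log2(CPM + 0.1) minus the mean of the gene over the 12 livers, and darker red in control ASO replicate 1 and blue in replicate 3 show the livers that stand apart.

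Upf3b-ASO livers were first compared with control ASO livers, in which the ligand and the chemistry were shared. With all 12 livers no marker passed an edgeR adjusted p of 0.05, whereas 6.57% of all genes did. Of the 38, 17 were higher and 21 lower, 4 had an unadjusted p under 0.05 (Cdh5, Reln, Dcn and Hgf), and the median log2 fold change was -0.03, as over all genes. In no marker did the 4 treated livers lie apart from the 4 control ASO livers, while 6.4% of all genes were higher and 6.36% lower in all 4.

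Among Kupffer and immune markers 9 of 16 had a higher and 7 a lower level with the Upf3b-ASO, with a median log2 fold change of 0.08. Clec4f was at 110, 138, 107 and 114 CPM in Upf3b-ASO livers and at 192, 98.6, 45.0 and 91.0 CPM in control ASO livers, against 87.1, 124, 91.9 and 100 CPM in DPBS livers. The treated livers lay inside the range of the control ASO livers, whose highest and lowest were replicates 1 and 3. The log2 fold change was 0.21 ± 0.29 (edgeR adjusted p = 0.69).

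The complement component C1q is made of chains from C1qa, C1qb and C1qc, which resident macrophages supply. C1qa was at 37.6, 49.9, 36.2 and 36.3 CPM in Upf3b-ASO livers, at 55.1, 32, 33 and 30.5 CPM in control ASO livers and at 28.7, 41.2, 28.3 and 32.5 CPM in DPBS livers. The groups overlapped, and the log2 fold changes were 0.10 ± 0.17 for C1qa, -0.13 ± 0.19 for C1qb and -0.07 ± 0.21 for C1qc.

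Among the receptors, Marco was at -1.26 ± 0.75 (edgeR adjusted p = 0.32), since 61.7 and 58.4 CPM in the deviating control livers stood against 5.38 to 23.7 CPM in the other 10. Csf1r was at -0.33 ± 0.21, Vsig4 at -0.27 ± 0.21 and Adgre1, the F4/80 antigen, at 0.08 ± 0.23. Control ASO replicate 1 weighed on these values, and without it Csf1r was at -0.05, Vsig4 at 0.04 and Adgre1 at 0.40. Timd4, which binds phosphatidylserine on dying cells, was at 0.08 ± 0.28. Cd68, a lysosomal protein, was at -0.10 ± 0.29 and Lyz2 at -0.03 ± 0.22.

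The antigen presentation genes were also within their error. Cd74, the invariant chain, was at 0.09 ± 0.20, and the MHC class II chains H2-Aa, H2-Ab1 and H2-Eb1 were at 0.14 ± 0.20, 0.12 ± 0.22 and 0.23 ± 0.24 on the log2 scale.

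Of the 12 endothelial markers 4 were higher and 8 lower, with a median log2 fold change of -0.08. Stab2, a scavenger receptor that also takes up phosphorothioate ASOs, was at 116, 98.5, 85.0 and 86.8 CPM in Upf3b-ASO livers and at 134, 140, 56.1 and 107 CPM in control ASO livers, against 137, 144, 126 and 128 CPM in DPBS livers. All 4 treated livers were under the DPBS livers, and control ASO replicate 3 was under them all. Against control ASO the log2 fold change was -0.15 ± 0.18 (edgeR adjusted p = 0.65).

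Clec4g was at 70.4, 71.2, 65.2 and 61.7 CPM in Upf3b-ASO livers, at 74.1, 73.0, 16.7 and 65.5 CPM in control ASO livers and at 68.1, 68.1, 53.4 and 55.2 CPM in DPBS livers. Apart from replicate 3 the values were close together, and the log2 fold change was 0.28 ± 0.31 (edgeR adjusted p = 0.61). Eng, the coreceptor endoglin, was at 34.3, 33.9, 28.4 and 28.6 CPM in Upf3b-ASO livers and at 44.8, 45.2, 20.9 and 35.7 CPM in control ASO livers, a log2 fold change of -0.21 ± 0.16.

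The other endothelial markers ranged widely in their error. Lyve1 was at -0.83 ± 0.58 and Cdh5 at -0.64 ± 0.29 (edgeR adjusted p = 0.40 and 0.20), and both values rested on control ASO replicate 3. Without it Lyve1 was at 0.33 ± 0.15, the opposite sign, and Cdh5 at -0.16 ± 0.09 (edgeR adjusted p = 0.17 and 0.27). Kdr was at 0.10 ± 0.24, Pecam1, the adhesion molecule CD31, at -0.07 ± 0.12, Fcgr2b, an Fc receptor that clears immune complexes, at 0.07 ± 0.24 and Oit3, a secreted marker of these cells, at 0.08 ± 0.20. Without replicate 3 the sign turned for Kdr (-0.15), Fcgr2b (-0.18), Oit3 (-0.13), Pecam1 (0.05) and Clec4g (-0.03), none of which passed. Mrc1, the mannose receptor, was at -0.11 ± 0.16, Stab1 at -0.09 ± 0.15 and Bmp2, a ligand that acts on hepatocytes to induce hepcidin, at -0.03 ± 0.16.

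Of the 10 stellate markers 4 were higher and 6 lower, with a median log2 fold change of -0.08, and the 3 lowest adjusted p-values of all markers were here. Reln, the secreted glycoprotein reelin (ENSMUSG00000042453, chromosome 5, 21884454 to 22344702, minus strand), was at 206, 180, 99.7 and 95.1 CPM in Upf3b-ASO livers, at 241, 204, 148 and 223 CPM in control ASO livers and at 239, 218, 189 and 181 CPM in DPBS livers. The treated males were the lowest of the 12 livers, and the treated females overlapped the other groups. Against control ASO the log2 fold change was -0.55 ± 0.17 (edgeR adjusted p = 0.083).

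Hgf, hepatocyte growth factor (ENSMUSG00000028864, chromosome 5, 16553495 to 16620152, plus strand), had the same arrangement. It was at 42.3, 34.4, 19.1 and 21.2 CPM in Upf3b-ASO livers, at 35.7, 41.7, 39.7 and 42.9 CPM in control ASO livers and at 47.6, 45.8, 34.9 and 32.5 CPM in DPBS livers. The treated males were again the lowest of the 12, and the log2 fold change was -0.52 ± 0.18 (edgeR adjusted p = 0.11).

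Dcn (ENSMUSG00000019929, chromosome 10, 97479609 to 97518143, plus strand) was at 130, 128, 86.6 and 89.3 CPM in Upf3b-ASO livers and at 171, 122, 148 and 134 CPM in control ASO livers, against 161, 143, 101 and 116 CPM in DPBS livers. Its log2 fold change was -0.43 ± 0.13 (edgeR adjusted p = 0.079). Lrat, which esterifies retinol for storage, was at 50.7, 43.5, 26.4 and 30.4 CPM in Upf3b-ASO livers, at 52.9, 45.4, 14.3 and 42.9 CPM in control ASO livers and at 51.5, 35.8, 38.2 and 37.0 CPM in DPBS livers, with no difference beyond the spread (-0.04 ± 0.27, edgeR adjusted p = 0.95).

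For the collagen chains the log2 fold changes were within their error, Col1a1 at 0.03 ± 0.41, Col1a2 at 0.12 ± 0.27 and Col3a1 at 0.38 ± 0.47. Without control ASO replicate 3 all 3 were negative, at -0.23, -0.10 and -0.01, and Des was at -0.07. Pdgfrb, a receptor for platelet-derived growth factor, was at -0.12 ± 0.18, Des at 0.10 ± 0.19 and Colec11, a collectin of the lectin complement pathway, at -0.14 ± 0.12.

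**Figure D4:**
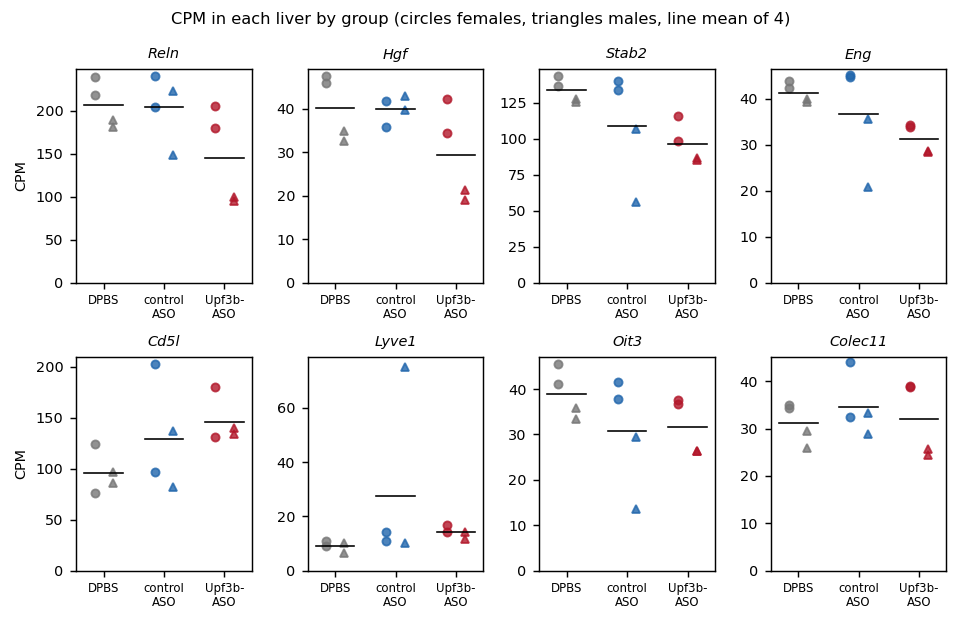
CPM of 8 markers in each of the 12 livers by group, with circles for females, triangles for males and a line for the mean of 4. Treated males lie lowest for Reln and Hgf, treated livers lie under DPBS livers for Stab2 and Eng and above them for Cd5l and Lyve1, and control ASO replicate 3 is the triangle far from its group for Stab2, Eng, Lyve1 and Oit3.

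Without control ASO replicate 3, an alternative planned for every liver, 4 markers passed the threshold against control ASO, and 16.8% of all genes did. All 4 were lower in Upf3b-ASO livers, Stab2 at -0.34 ± 0.08, Eng at -0.38 ± 0.06, Mrc1 at -0.28 ± 0.07 and Reln at -0.60 ± 0.17 (edgeR adjusted p = 0.011, 0.0025, 0.014 and 0.03). Without replicate 1 alone no marker passed, and 5.05% of all genes did. Without replicate 2 Dcn passed, at -0.57 (edgeR adjusted p = 0.014), with 3.92% of all genes. Leaving out both, which was chosen after the data were seen and leaves 2 control ASO livers, 6 markers passed, against 13.1% of all genes.

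Cd5l was higher by 0.73 ± 0.18 and Adgre1 by 0.53 ± 0.16 there (edgeR adjusted p = 0.021 and 0.049). Stab2 (-0.34 ± 0.09), Mrc1 (-0.24 ± 0.07), Eng (-0.36 ± 0.07) and Hgf (-0.59 ± 0.17) were lower, and Reln, at -0.63 ± 0.19, missed the threshold (edgeR adjusted p = 0.055). The median log2 fold changes were 0.32 for Kupffer and immune, -0.17 for endothelial and -0.14 for stellate markers in that fit. The counts of 4 and 6 of 38 stand against those backgrounds.

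DPBS livers served as the other reference, and they share the treated livers with the comparison above. No marker passed with all 12 livers, and 6.02% of all genes did. The median log2 fold change was -0.07 over the markers and 0.00 over all genes, with 16 markers higher and 22 lower and 5 at an unadjusted p under 0.05. By class the medians were 0.20 for Kupffer and immune markers (11 of 16 higher), -0.23 for endothelial (9 of 12 lower) and -0.27 for stellate markers (8 of 10 lower).

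In 4 markers the treated livers did not overlap the DPBS livers. Cd5l (ENSMUSG00000015854, chromosome 3, 87357881 to 87371073) was at 131, 180, 140 and 134 CPM against 76.3, 124, 86.2 and 96.3 CPM, and Lyve1 at 16.7, 14.2, 11.8 and 14.1 against 9.03, 10.9, 6.32 and 10.1 CPM. Both lay above, as did 8.69% of all genes. Stab2 and Eng lay below, as did 9.77% of all genes, Eng at 34.3 CPM or less against 39.2 CPM or more. The shares of markers, 2 of 38 in each direction, were under those of all genes.

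The log2 fold changes against DPBS were 0.61 ± 0.25 for Cd5l, 0.64 ± 0.57 for Lyve1, -0.48 ± 0.18 for Stab2 and -0.41 ± 0.16 for Eng (edgeR adjusted p = 0.19, 0.60, 0.16 and 0.17). Cd68 was at 0.56 ± 0.29, Reln at -0.57 ± 0.17 (edgeR adjusted p = 0.086) and Hgf at -0.49 ± 0.18. The SE of Lyve1 was this wide because the fit shares its spread with the control ASO group.

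With control ASO replicates 1 and 3 left out of the fit, which takes no liver from either side of this comparison, 9 markers passed against DPBS, and 21.9% of all genes did. Cd5l (0.61 ± 0.14) and Lyve1 (0.65 ± 0.14) were higher. Stab2 (-0.47 ± 0.07), Eng (-0.40 ± 0.06), Kdr (-0.31 ± 0.06), Oit3 (-0.30 ± 0.07), Mrc1 (-0.22 ± 0.06), Reln (-0.56 ± 0.16) and Hgf (-0.48 ± 0.14) were lower. The log2 fold changes were close to those with all 12 livers, and the SE were smaller. Clec4f (0.21 ± 0.29), C1qa (0.29 ± 0.17), Clec4g (0.15 ± 0.31), Lrat (-0.15 ± 0.27) and Dcn (-0.27 ± 0.13) passed in neither fit.

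**Figure D5:**
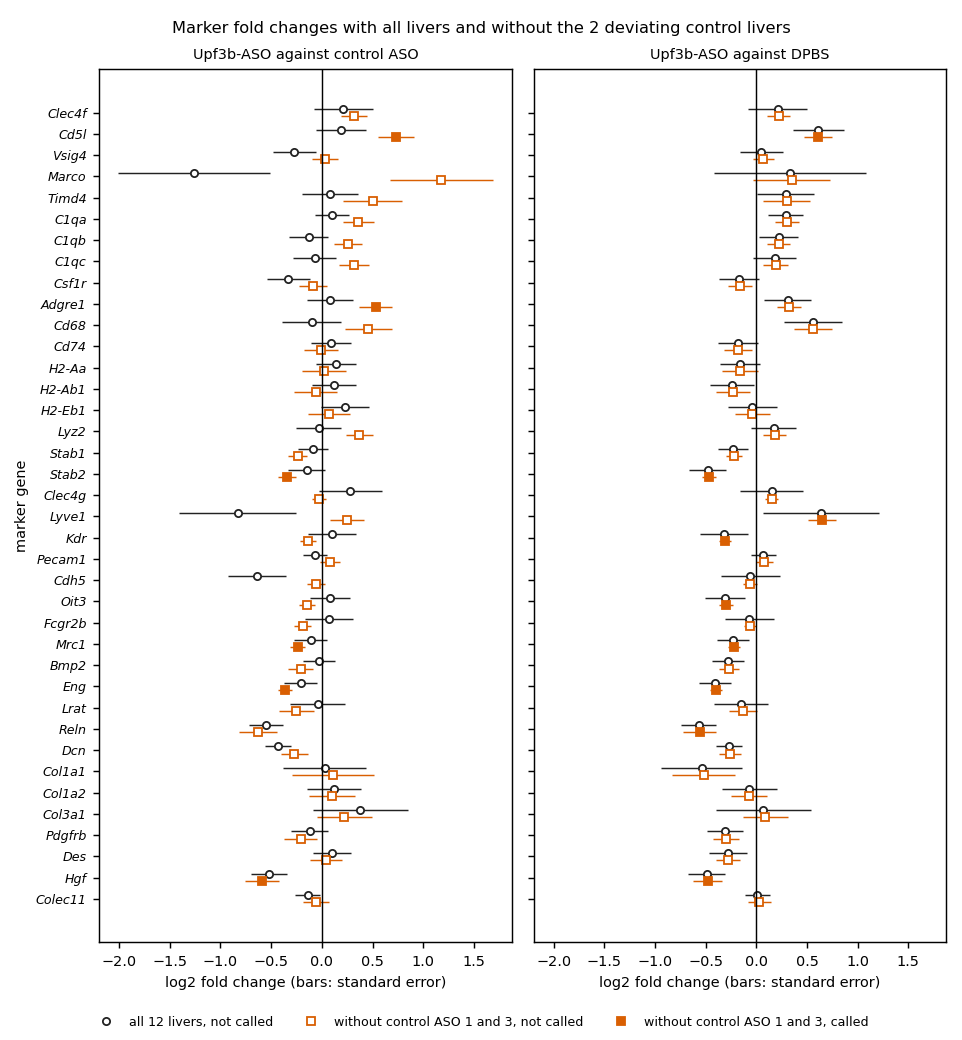
Log2 fold change of each marker with its standard error, for Upf3b-ASO against control ASO (left) and DPBS (right), with all 12 livers (circles) and without control ASO replicates 1 and 3 (squares, filled where the edgeR adjusted p was under 0.05). No circle is filled, and 6 squares on the left and 9 on the right are.

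Control ASO livers were compared with DPBS livers as the background of treatment with a scrambled conjugate. No marker passed, and 0.0072% of all genes did, a single gene. The largest differences were those of Marco (1.59 ± 0.75), Lyve1 (1.47 ± 0.59), Cd68 (0.66 ± 0.29) and Cdh5 (0.59 ± 0.29), each at an edgeR adjusted p of 0.67. By class 12 of 16 Kupffer and immune markers were higher, with a median of 0.20, and 9 of 12 endothelial and 7 of 10 stellate markers were lower, with medians of -0.14 and -0.15.

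These medians also followed the deviating livers. Without replicates 1 and 3 only 2 of 16 Kupffer and immune markers were higher than in DPBS, with a median of -0.12, and the endothelial and stellate medians were 0.00 and -0.04. In that fit Marco was at -0.83 ± 0.51, Lyve1 at 0.40 ± 0.17, Cd68 at 0.10 ± 0.23 and Cdh5 at 0.00 ± 0.09. Again no marker passed, and 0.0864% of all genes did, 0.0288% without replicate 3 alone.

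Whether the effect of the Upf3b-ASO differed between the sexes was then tested, as the treated males were the lowest livers for Reln and Hgf. No gene of the 13896 passed for the difference of the effects, so that the background was 0.0% against control ASO and 0.0% against DPBS. At an unadjusted p under 0.05 there were 1021 and 494 genes, among them Reln and Hgf each time. The difference of the effects, male minus female, was -0.72 ± 0.27 for Reln and -1.02 ± 0.20 for Hgf with control ASO as the reference (edgeR adjusted p = 0.62 for both). With DPBS as the reference it was -0.68 ± 0.27 and -0.46 ± 0.20 (edgeR adjusted p = 1).

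Within males, 2 livers against 2, Reln fell by 0.93 ± 0.19 and Hgf by 1.03 ± 0.14 on the log2 scale against control ASO (edgeR adjusted p = 0.045 and 0.014), and 2.17% of all genes passed. Against DPBS they fell by 0.92 ± 0.19 and 0.74 ± 0.14 (edgeR adjusted p = 0.0499 and 0.0419), and 1.75% of all genes passed. No other marker passed, with Dcn at -0.68 ± 0.16 against control ASO (edgeR adjusted p = 0.066). Reln thus passed narrowly. The low values of the same 2 treated males had prompted this comparison, so these calls are not separate support for a fall in males.

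Within females no marker passed, against a background of 0.921% for control ASO and 0.95% for DPBS. Reln was at -0.21 ± 0.19 and Hgf at -0.01 ± 0.14 against control ASO there, and at -0.24 ± 0.19 and -0.28 ± 0.14 against DPBS. Passing in males and not in females does not show a difference between them, since its own test did not pass.

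Control ASO replicate 3 was not needed for the values in males. Without it, with the lone control ASO male assumed to vary like the other livers, Reln fell by 1.18 ± 0.13 and Hgf by 1.08 ± 0.15 (edgeR adjusted p = 0.0025 and 0.0056), and 4.39% of all genes passed. The difference of the effects was then -0.99 ± 0.17 for Reln and -1.07 ± 0.19 for Hgf (edgeR adjusted p = 0.71 for both).

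Males and females were compared next. Over all 12 livers 31 of 38 markers were lower in males and 7 higher, with a median log2 difference, male minus female, of -0.33, against 0.01 over all genes tested. By class the medians were -0.24 for Kupffer and immune markers (12 of 16 lower), -0.38 for endothelial (9 of 12 lower) and -0.41 for stellate markers (10 of 10 lower). An unadjusted p under 0.05 was reached by 14 markers, and 7.28% of all genes passed the adjusted threshold.

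Colec11 was the single marker that passed. Over the 6 females it ranged from 32.4 to 44.1 CPM with a median of 37.0, and over the 6 males from 24.4 to 33.3 CPM with a median of 27.4. In DPBS livers it was at 35 and 34.3 CPM in females and at 29.6 and 25.9 CPM in males, in control ASO livers at 44.1, 32.4, 28.8 and 33.3 CPM, and in Upf3b-ASO livers at 38.9, 39.1, 24.4 and 25.6 CPM. The sexes overlapped through control ASO replicates 2 and 4. The log2 difference was -0.42 ± 0.10 (edgeR adjusted p = 0.024), and without control ASO replicate 1 it was -0.38 ± 0.10 and did not pass (edgeR adjusted p = 0.072). The call was also lost without DPBS replicate 1 or 4 and without any single Upf3b-ASO liver.

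All 6 males lay below all 6 females in 3 markers, Clec4g, Oit3 and Fcgr2b, against 2.43% of all genes. Oit3 had a median of 39.6 CPM in females (36.6 to 45.4) and of 27.9 CPM in males (13.6 to 35.9), a log2 difference of -0.56 ± 0.16 (edgeR adjusted p = 0.063). Clec4g had medians of 70.8 and 58.5 CPM and Fcgr2b of 47.7 and 39.5 CPM. Just short of the threshold were also Reln (-0.52 ± 0.14, adjusted p = 0.051), Vsig4 (-0.58 ± 0.17, adjusted p = 0.065) and Dcn (-0.37 ± 0.11, adjusted p = 0.068), all by edgeR.

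The antigen presentation genes were close to equal in the sexes. Cd74 was at 0.07 ± 0.16, H2-Aa at 0.06 ± 0.16, H2-Ab1 at 0.10 ± 0.18 and H2-Eb1 at 0.00 ± 0.20, male minus female on the log2 scale.

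Without control ASO replicate 3, 13 markers were called lower in males and none higher, and 16.4% of all genes passed. They were the endothelial markers Stab2 (-0.26), Clec4g (-0.22), Kdr (-0.20), Oit3 (-0.41), Fcgr2b (-0.23), Mrc1 (-0.25) and Eng (-0.22) and the stellate markers Lrat (-0.39), Reln (-0.47), Dcn (-0.42), Des (-0.37), Hgf (-0.46) and Colec11 (-0.40). Oit3 had the lowest adjusted p of these, 0.00054 by edgeR. The differences are small, and those of Reln and Hgf include treated males with low values.

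Without replicates 1 and 3, 12 markers were called lower in males, and 15.1% of all genes passed. Vsig4 (-0.37 ± 0.09, edgeR adjusted p = 0.019) was the Kupffer and immune marker among them, and Lrat and Des were no longer called. With the treated livers left out as well, a fit of 6 livers, Oit3 alone was called, with 7.61% of all genes, and the marker median was -0.15. In the fit of 10 livers the medians were -0.14 for Kupffer and immune, -0.22 for endothelial and -0.35 for stellate markers.

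By TPM the sums over each class overlapped between groups. The Kupffer and immune markers summed to 495 ± 110 TPM in DPBS livers, 553 ± 289 TPM in control ASO livers and 552 ± 132 TPM in Upf3b-ASO livers (SD, n = 4). Endothelial markers summed to 316 ± 61.4, 290 ± 109 and 284 ± 63.7 TPM, and stellate markers to 227 ± 62.0, 214 ± 74.5 and 190 ± 67.5 TPM. The TPM sums also differed between the sexes, which widens these SD. A transcript joined to no gene held 2.39% to 9.45% of TPM in DPBS livers and 3.88% to 8.83% in control ASO livers. In Upf3b-ASO livers it held 8.26% to 15.98%, and its part in the TPM sums was not tested. Summed as CPM, endothelial markers were at 803, 815, 735 and 718 in DPBS livers and at 753, 694, 599 and 605 in Upf3b-ASO livers. Each treated liver was below both DPBS livers of its sex, and the means were 768 ± 48.6 and 663 ± 74.3 CPM. The control ASO livers were at 832, 839, 492 and 686 CPM. Stellate markers summed to 622, 570, 449 and 520 CPM in DPBS livers and to 564, 513, 339 and 349 CPM in Upf3b-ASO livers. Here too each treated liver was below both DPBS livers of its sex, and the means were 540 ± 73.6 and 442 ± 114 CPM. The control ASO livers were at 665, 529, 404 and 555 CPM for these markers. Kupffer and immune markers summed to 569 ± 101 CPM in DPBS and 659 ± 82.6 CPM in Upf3b-ASO livers. For these markers the control ASO livers were at 667 ± 254 CPM. Over both sexes the ranges of DPBS and Upf3b-ASO livers overlapped in each class. CPM sums weigh high genes most, such as Reln and Dcn, at means of 207 and 130 CPM in DPBS livers. With each member weighing the same, Upf3b-ASO replicate 1 was level, as rounded, with a DPBS female in both classes. The endothelial level was 1.1, as in DPBS replicate 1, and the stellate level 1.15, as in DPBS replicate 2. The log2 differences were then -0.12 and -0.23 from DPBS, and -0.04 and -0.05 from control ASO. No test was run on these values.

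Other genes of these cells and of related pathways were followed as written lists. Of 14 further stellate genes none was higher in Upf3b-ASO than in control ASO livers, and the median log2 fold change was -0.54. Among them 2 fell, beside 6.57% of all genes that passed in either direction. These were Adamtsl2, a secreted regulator of the matrix, by 0.89 ± 0.21, and Rgs5, a regulator of G protein signalling in pericyte-like cells, by 0.76 ± 0.15 (edgeR adjusted p = 0.03 and 0.015). Rgs5 was at 49.0, 41.0, 32.6 and 32.4 CPM in Upf3b-ASO livers and at 88.9, 52.7, 62.8 and 55.3 CPM in control ASO livers, where the highest was replicate 1. Without replicate 1 Adamtsl2 did not pass (-0.86 ± 0.24, edgeR adjusted p = 0.07), and without replicates 1 and 3 Rgs5 was at -0.49 ± 0.13. Against DPBS none of the 14 passed, and Rgs5 was at -0.19 ± 0.15. Without replicate 3, 5 of the 14 were called lower against control ASO, beside 16.8% of all genes. Without both livers 3 were, beside 13.1% of all genes. Without both livers 3 were also called lower against DPBS, beside 21.9% of all genes.

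Of 21 matrix and stellate activation genes tested 1 passed, beside 6.57% of all genes. It was Bgn, the proteoglycan biglycan, which fell by 0.49 ± 0.12 (edgeR adjusted p = 0.03). It did not pass without replicate 1 (-0.42 ± 0.13, edgeR adjusted p = 0.088). None of the 22 further endothelial genes passed with all livers, with 8 higher and a median of -0.18. Without replicate 3, 2 were called lower against control ASO, beside 16.8% of all genes. Against DPBS without both livers 4 were called lower and 1 higher, beside 21.9% of all genes. None of the 15 further Kupffer and macrophage genes passed with all livers, with 6 higher and a median of -0.09. Without replicate 3, 1 was called higher and 1 lower against control ASO, again beside 16.8% of all genes. Against DPBS without both livers 4 were called higher and 1 lower, again beside 21.9%.

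Genes of antigen presentation on MHC class I were followed beside the class II genes among the markers, none of which was called. All 9 class I genes had a positive log2 fold change against control ASO, with a median of 0.11. Among them 2 rose, beside 6.57% of all genes that passed in either direction. These were Psmb9, an immunoproteasome subunit, by 0.99 ± 0.22 and Tap1, a peptide transporter, by 0.78 ± 0.14 (edgeR adjusted p = 0.024 and 0.0081). Tap1 was at 43.3, 44.8, 45.4 and 47.1 CPM in Upf3b-ASO livers, against 22.1 to 32.9 CPM in control ASO livers. Against DPBS 3 of the 9 rose, beside 6.02% of all genes. Without replicate 3, 5 were called higher against control ASO, beside 16.8% of all genes. Without both livers 4 were called higher against control ASO and 7 against DPBS, beside 13.1% and 21.9% of all genes. Hepatocytes and immune cells both make these proteins, and their shares cannot be told apart here.

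Irf7, the interferon regulatory factor of the nucleic acid sensing list, rose by 1.33 ± 0.16 against control ASO and by 1.57 ± 0.16 against DPBS (edgeR adjusted p = 0.00096 and 0.00029). It was at 86.3, 83.0, 66.2 and 83.1 CPM in Upf3b-ASO livers and at 43.5, 27.2, 30.6 and 26.0 CPM in control ASO livers, without overlap. The other 6 genes of that list that were tested did not pass with all livers. Without both livers 2 of the 7 were called higher against control ASO and 3 against DPBS. The shares of all genes called there were 13.1% and 21.9%. Of 11 tested genes of the MHC class II pathway outside the markers none passed, with 7 higher and a median of 0.09.

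None of the genes in the lists of other cell types passed between Upf3b-ASO and control ASO livers with all 12 livers. Without both deviating livers 1 hepatocyte gene was called lower, beside 13.1% of all genes. Without replicate 3 alone 1 neutrophil and 1 monocyte gene were called lower, beside 16.8% of all genes. The median log2 fold change was -0.25 over 12 hepatocyte genes, -0.11 over 6 cholangiocyte, -0.23 over 7 monocyte and recruited macrophage, -0.04 over 5 dendritic cell and -0.13 over 4 T and NK cell genes. It was 0.21 over 5 B and plasma cell genes and -0.03 over 7 mesothelial and portal fibroblast genes. The medians of -3.95 over 5 neutrophil genes and -0.91 over 8 erythroid genes moved with the deviating control livers, and against DPBS they were -0.19 and 0.45. Without both livers 3 erythroid genes were called higher against DPBS, with 1 hepatocyte gene higher and 2 lower, and 1 dendritic cell gene lower. Of all genes 21.9% passed in that fit.

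Transcripts of the nonsense_mediated_decay biotype were examined because the target acts in that pathway. No Kupffer or immune marker has such a transcript, and of the others Clec4g and Reln have 1 each. Of the TPM of Reln, the only stellate marker concerned, 22.3% ± 7.26 lay on that transcript in DPBS livers, 15.8% ± 5.45 with the control ASO and 21.1% ± 3.18 with the Upf3b-ASO (SD, n = 4). The ranges overlapped, from 15.3% to 30.5%, 10.5% to 22.9% and 16.7% to 24.0%. By estimated counts, which do not weigh a short transcript up, the share was 1.34% ± 0.578, 0.817% ± 0.282 and 1.13% ± 0.237. For Clec4g it was 0.167%, 0.117% and 0.142% of TPM.

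The promoters of MHC class II genes carry a Y box, which NF-Y binds, and it is shown because class II chains are among the markers. The letters CTGATTGG, which contain CCAAT on the opposite strand, were searched on either strand from 250 bases before to 50 after the start in RefSeq promoters of GRCm38.p6. Of 25 markers searched, H2-Aa and H2-Eb1 held them, and 4.1% of 32851 entries did. H2-Ab1 and Cd74 were not searched. Capitals mark the match, at 51 bases before the start of H2-Aa (chr17:34287857-34287884, minus strand) and at 62 bases before that of H2-Eb1 (chr17:34305795-34305822, plus strand).

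H2-Aa: agagaattttCTGATTGGttctggcgag

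H2-Eb1: tcctttgatgCTGATTGGctcccagcac

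The levels of these genes were high and low in the same livers, and no correlation was computed. H2-Aa was at 14.5, 25.2, 16.2 and 23.9 CPM in DPBS livers and H2-Eb1 at 10.8, 16.4, 12.2 and 15.2 CPM, with replicates 2 and 4 high for both. In Upf3b-ASO livers replicate 3 was the highest for both, at 22.2 and 18.2 CPM, and in control ASO livers replicate 3 was the lowest, at 12.7 and 6.75 CPM. H2-Ab1 and Cd74 had the same pattern. Their promoters were not searched, so the pattern cannot be compared between genes with and without the match. H2-Ab1 was at 11.7, 17.9, 12.3 and 17.4 CPM in DPBS livers, and Cd74 at 30.7, 49.4, 40.6 and 48.4 CPM. They were at 16.7 and 46.1 CPM in Upf3b-ASO replicate 3 and at 7.94 and 24.3 CPM in control ASO replicate 3. A match of letters is a description and not evidence of binding.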

How the data were processed

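Whole-liver RNA of 12 mice was sequenced (TruSeq libraries), and the authors quantified transcripts with Salmon 0.7.2, after bcl2fastq 2.17.1.14, against GRCm38.p4. The deposited files give estimated counts and TPM, as the authors made them, for 92468 transcripts per liver. Of these, 98.1% were joined to a gene, with 97.51% to 99.26% of counts and 79.7% to 95.91% of TPM per liver. For each gene the estimated counts of its transcripts were added and the sum rounded. Genes with a mean of at least 0.5 CPM were tested with edgeR 4.0.16 (quasi-likelihood, TMM, sex as covariate, all 12 livers, R 4.3.3), and an adjusted p under 0.05 (Benjamini-Hochberg over all genes tested) was a call. The fit was also run on simulated counts without a sex effect or deviating livers, and no conclusion is drawn from that run. Alternatives used DESeq2 1.42.0 and limma 3.58.1.

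Labels name separate animals and no batch, so the p-values measure the spread between these animals. Counts give counting error only. The members, lists and tests were chosen with earlier results of these data known. All 38 members were described by class and role. Of other lists at most 4 genes were named, those called against control ASO with the largest change. The 16 other lists held 183 genes, of which 1 was not matched. Treatment with the Upf1 ASO was not analysed here.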

Additional observations from a re-analysis of the deposited data

Results flagged for a closer look

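Of 114 sets of 4 livers (38 markers in 3 groups), 17 held a liver set apart from the other 3 by more than Dixon's critical gap. For 1 set alone chance gives about 1 in 20, but the sets share their livers, so 17 cannot be set against that rate. In control ASO replicate 1, C1qa (55.1 CPM), Csf1r (96.6 CPM) and Lyz2 (96.9 CPM) were high. In control ASO replicate 3, Lyve1 (75.2 CPM) and Cdh5 (62.2 CPM) were high, and Clec4g (16.7 CPM) and H2-Eb1 (6.75 CPM) were low. In Upf3b-ASO replicate 2 the macrophage genes Cd5l (180.0 CPM), C1qa (49.9 CPM) and Adgre1 (48.0 CPM) were high. In Upf3b-ASO replicate 3 the antigen presentation genes Cd74 (46.1 CPM), H2-Aa (22.2 CPM) and H2-Eb1 (18.2 CPM) were high. In DPBS livers, Lyz2 (59.2 CPM) and Cdh5 (23.0 CPM) were high in replicate 2, Lrat (51.5 CPM) was high in replicate 1 and Pdgfrb (8.99 CPM) was low in replicate 3.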

How the results depend on the processing

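Among the fits that leave out 1 liver, counts of calls against control ASO rose most without control ASO replicate 3 (2340 genes). They fell without control ASO replicate 1 (702 genes) and fell most without Upf3b-ASO replicate 4 (396 genes). The 4 livers a group limit what could be detected. For Upf3b-ASO against control ASO, the 913 genes and 0 markers called became 1739 genes and 2 markers with DESeq2, 3156 and 6 with sample quality weights, and 1820 and 6 without control ASO replicates 1 and 3. Genes called were 357 and 337 by limma on log2(TPM + 1) and log2(TPM + 0.1), 534 with no sex covariate, 315 with 2 groups only, 309 at an adjusted p under 0.01 and 387 at the cutoffs of the study. For Upf3b-ASO against DPBS, the 837 genes and 0 markers became 1355 and 1 with DESeq2, 2794 and 10 with 2 groups only, 3363 and 12 with weights, and 3040 and 9 without both livers. Genes called were 369 and 349 by limma, 506 with no sex covariate, 324 at 0.01 and 353 at the cutoffs of the study. For control ASO against DPBS, the 1 gene became 0 with library size alone, limma at either pseudocount, the replicate block, 2 groups only or 0.01, 31 with DESeq2, 26 at the cutoffs of the study, 8 with weights and 12 without both livers. For males against females, the 1011 genes and 1 marker became 1602 and 6 with DESeq2, 3860 and 23 by limma on log2(TPM + 1), 448 and 0 at 0.01, 436 and 0 at the cutoffs of the study, and 2104 and 12 without both livers. With the filter of the study or no filter 4 markers passed. Pecam1 reversed to -0.29 by limma on log2(TPM + 1). The cause of these differences was not tested.

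Leaving out 1 liver in turn gave 396 to 2340 genes and 0 to 4 markers against control ASO, 389 to 558 genes against DPBS, 0 to 4 genes for control ASO against DPBS, and 673 to 2278 genes and 0 to 13 markers by sex. With library size alone, 70.5% of calls against control ASO were higher, not 43.5%, and 58.7% against DPBS, not 41.5%. The shift of the median of all genes was then 0.13 and 0.08. The difference in the Reln share on the NMD-biotype transcript, Upf3b-ASO minus control ASO, was 5.32 percentage points by TPM and 0.31 by estimated counts.

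Replicate numbers contain sex. Deviations of same-numbered livers correlated at 0.131 to 0.518, and after removing sex at -0.429 to 0.207. Removing sex by itself pushes livers of the same sex in different groups towards opposite deviations. These values therefore cannot tell whether same-numbered livers share anything beyond sex. With the replicate block 711 genes passed against control ASO and 622 against DPBS, and no marker did.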
